A study of Mus musculus with 12 samples.

Results

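The genes described here are 10 genes by which macrophages take in, store, export, and sense iron. They were chosen by name and grouped by role, with Tfrc, Slc11a1, Slc11a2, Slc39a14, and Slc48a1 for import, Fth1 and Ftl1 for storage, Slc40a1 and Cp for export, and Ireb2 for regulation. All 10 were found by their identifiers among the 43626 genes of the count files, and all 10 were among the 14308 genes with enough reads to be tested. It was already known when the genes were chosen that Slc40a1 was higher with the milk sugar 3′-sialyllactose (3′SL) both without and with LPS, so its values in those 2 comparisons are a description and not an independent finding.

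Macrophages of the spleen and liver break down aged red cells and return the iron to the plasma, where it is carried by transferrin. Iron enters cells through the transferrin receptor or as heme, is held in the ferritin shell, and leaves through ferroportin, the product of Slc40a1 and the only known iron exporter of mammalian cells. The iron regulatory proteins bind short hairpins in mRNAs called iron-responsive elements (IREs), where they block translation from the 5′ UTR or protect the mRNA from decay in the 3′ UTR when iron is scarce. During infection, macrophages are known to hold iron back, with less ferroportin at the surface.

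The cells were mouse BMDMs (macrophages derived from bone marrow in culture), and RNA-Seq was done on 12 libraries, 3 for each of 4 conditions. The conditions were PBS alone, 3′SL (100 μg/mL), LPS (10 ng/mL), the bacterial endotoxin sensed by TLR4, and LPS with 3′SL, each for 6 hours. The labels call 3′SL by the abbreviation HMO and give injections of mice as the treatment, so doses and hours are those the study states for these cultures. The strain, genotype, and age of the mice were not given in the sources used here, and the labels do not say which libraries came from separate cultures or mice, so p-values measure the spread between these libraries, which may be technical.

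Between 20411741 and 26851890 reads per library were counted on genes. All 8 macrophage markers listed (such as Csf1r and Adgre1) were present in every condition, with a summed level of 17634 to 28335 CPM (read counts brought to a common library size with TMM factors). Beyond the conditions, the libraries clustered as 3 sets, each holding 1 library per condition, with a mean residual correlation of 0.596 within sets and -0.346 between them. Fibroblast and neutrophil markers moved with these sets. The summed level of 7 fibroblast markers was 529 to 616 CPM in set 1, 22.5 to 42.0 CPM in set 2, and 54.0 to 96.7 CPM in set 3, and that of 6 neutrophil markers was 77.0 to 120 CPM, 138 to 241 CPM, and 173 to 553 CPM. Of 9 erythroid markers, 4 were at 0 in all libraries, and their sum was at most 3.05 CPM. The libraries of each condition are therefore given below in the order of sets 1, 2, and 3, and changes within sets stand beside the fitted change. The part of the sets and of other cells in the results was not tested.

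Matches to an IRE pattern in the members are shown because IREs tie mRNAs of import, storage, and export to the same regulator. A search of every coding transcript in the GRCm38 annotation for a loop of CAGTGN between 2 runs of 5 bases that can pair with each other (G with T allowed) and a C just before the first run found 7 such hairpins in the UTRs of 4 members, and matches in 294 of 21901 coding genes (1.34%). The loop stands in capitals, and each line gives 30 bases from 5′ to 3′ on the strand of the gene. In the 3′ UTR of Tfrc, 4 hairpins follow one another on the plus strand, at chr16:32631219-32631248, chr16:32631598-32631627, chr16:32631663-32631692, and chr16:32631710-32631739. The 5′ UTR of Fth1 holds 1 at chr19:9982732-9982761 (plus strand), that of Ftl1 1 at chr7:45459778-45459807 (minus strand), and that of Slc40a1 1 at chr1:45925464-45925493 (minus strand).
Tfrc, IRE 1: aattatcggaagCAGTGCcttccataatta
Tfrc, IRE 2: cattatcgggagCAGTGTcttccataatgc
Tfrc, IRE 3: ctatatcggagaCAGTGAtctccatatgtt
Tfrc, IRE 4: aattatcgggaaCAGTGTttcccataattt
Fth1: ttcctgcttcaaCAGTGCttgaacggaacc
Ftl1: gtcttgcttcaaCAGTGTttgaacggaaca
Slc40a1: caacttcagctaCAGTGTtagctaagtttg
No match to these letters was found in the coding transcripts of the other 6 members, which draws nothing about iron control of those genes. The search would miss IREs of other letters or pairing in any member, so the hairpins shown may not be all.

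Changes were tested with edgeR's quasi-likelihood test over all 12 libraries, and calls needed a change of 1.5-fold or more and a Benjamini-Hochberg adjusted p under 0.05. LPS against PBS called 6 of the 10 members, 4 higher (Cp, Slc39a14, Slc11a2, and Fth1) and 2 lower (Slc40a1 and Tfrc), where 38.5% of all genes tested were called. The groups did not overlap for 7 members, where this held for 58.4% of all genes. The members' median log2 fold change was 0.59, and that of all genes tested was -0.06. In these whole cultures, fewer cells of a type and less RNA per cell cannot be told apart. This LPS result also depends on the scaling in part, since libraries scaled by total counts alone move the median of all genes to -0.71, and on that scale Slc11a1, Slc48a1, and Ireb2 take values below 0 while the 5 calls other than Fth1 keep their direction and pass the test, and Ftl1 is called lower (-0.89, adjusted p = 0.00164).

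For 3′SL, the 2 comparisons, 3′SL against PBS and LPS + 3′SL against LPS, share no library with each other, but each shares 3 with LPS against PBS. With edgeR, neither called a member, and neither called any of the 14308 genes (0.0% in both), although 1439 and 995 genes had an unadjusted p under 0.05, among them 2 members in each (Slc40a1 in both, with Slc48a1 in the first and Cp in the second). The values of 9 members were higher in 3′SL against PBS, where the median of their log2 fold changes was 0.42, and 0.00 for all genes, and 5 were higher and 5 lower in LPS + 3′SL against LPS, with a median of -0.01 for the members and for all genes. DESeq2 called 0.615% of all genes in the first comparison and 0.790% in the second, and Slc40a1 was the single member called in each, which restates what was known when it was chosen. With the library set as a block in edgeR, 2.84% and 1.45% of all genes were called, and among the members these were Slc40a1, Slc39a14, and Slc48a1, all higher, in the first and Slc40a1 (higher) and Cp (lower) in the second. The block calls of Slc40a1 were lost without library set 1 (adjusted p = 0.0792 and 0.0708) or set 2 (0.0808 and 0.0794). The groups did not overlap for Slc40a1 alone among the members in 3′SL against PBS, where this held for 17.5% of all genes, and for Slc40a1, Cp, and Ireb2 in LPS + 3′SL against LPS, where it held for 12.7%.

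**Figure D1:**
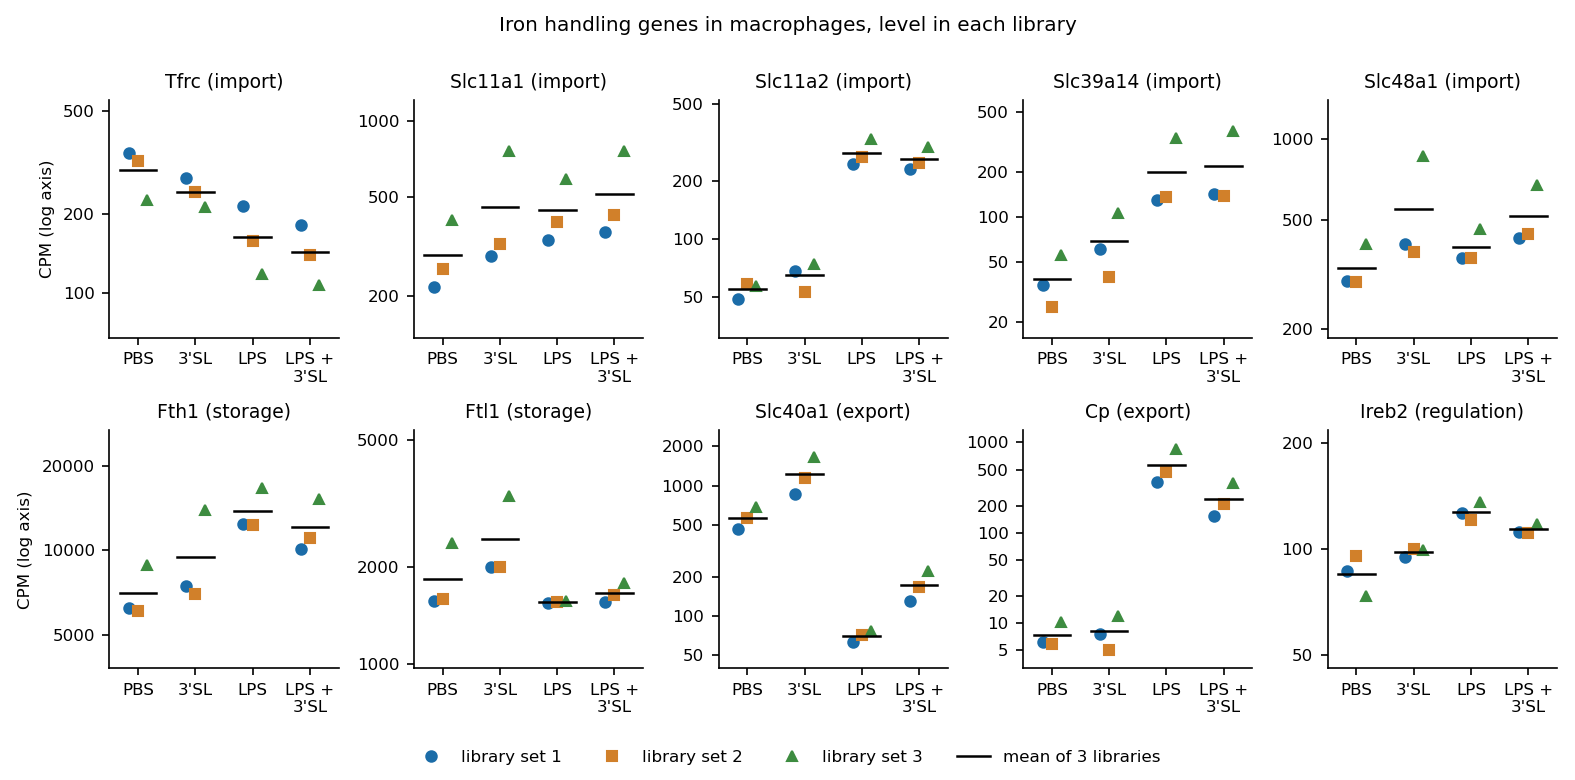
Level of each of the 10 members in each of the 12 libraries, in CPM on a log axis with its own range in each panel, by condition (HMO in the labels is 3′SL). Colored points are library sets 1 to 3 and black lines are means of 3 libraries. Slc40a1 is lowest and Cp highest in the LPS libraries, and set 3 lies highest in most panels but lowest for Tfrc.

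Among the import genes, Tfrc encodes the transferrin receptor, the main route of iron uptake from plasma. In the order of sets 1 to 3, its level was 344, 321, and 227 CPM with PBS, 276, 244, and 213 CPM with 3′SL, 216, 159, and 118 CPM with LPS, and 181, 139.7, and 107 CPM with LPS + 3′SL. Every LPS library lay below every PBS library, and set 1 was the highest and set 3 the lowest in each condition. With LPS, Tfrc fell by 0.86 on the log2 scale (SE 0.25, edgeR adjusted p = 0.0163), a 1.81-fold change from 298 ± 62.0 to 164 ± 49.1 CPM (SD, n = 3). The changes with 3′SL were -0.28 without LPS and -0.20 with LPS (adjusted p = 0.761 and 1.0), and the groups overlapped, although each of the 3 sets had the lower value with 3′SL in both settings. The call with LPS is not firm, since it was lost on leaving out library set 2, with a value of -0.78 and an adjusted p of 0.200, or on leaving out the PBS library of set 1 or 2 or the LPS library of set 2 or 3 (adjusted p at most 0.0642).

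Slc11a2 (DMT1) and Slc39a14 (ZIP14) both carry ferrous iron across membranes, the first mainly out of the endosome and the second across the plasma membrane. Slc11a2 was at 49.0, 58.1, and 57.0 CPM with PBS and at 244, 265, and 329 CPM with LPS, with no overlap and little spread between sets. It rose 5.11-fold with LPS (log2 fold change 2.35, SE 0.17, adjusted p = 2.12e-06). With 3′SL it was at 67.7, 53.3, and 73.9 CPM and with LPS + 3′SL at 232, 247, and 299 CPM, so each 3′SL group overlapped its own control (log2 fold changes 0.25 and -0.11). Slc39a14 rose by about as much with LPS (5.14-fold, log2 fold change 2.36, SE 0.55, adjusted p = 0.00475), from 35.2, 25.3, and 56.0 CPM to 129.8, 136, and 333 CPM. Its wider error goes with set 3, the highest library in each condition.

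In quiescent cells, Slc39a14 was higher with 3′SL in each set, at 61.0, 40.2, and 106 CPM, and the changes within sets were 0.79, 0.67, and 0.92. The groups overlapped, and the fitted log2 fold change of 0.83 (SE 0.53) did not pass the test (adjusted p = 0.648), but passed it with the set as a block (adjusted p = 0.0126, and 0.118 and 0.128 without set 1 or set 2). With LPS present, at 143, 137, and 373 CPM with 3′SL, the change was 0.13 (SE 0.52, adjusted p = 1.0), and the changes within sets were 0.14, 0.02, and 0.16.

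Slc11a1 (NRAMP1) moves metal ions out of the phagosome, and Slc48a1 (HRG1) moves heme out of the phagolysosome after red cells are digested. Slc11a1 was at 219, 258, and 405 CPM with PBS, 289.9, 323, and 757 CPM with 3′SL, 337, 398, and 590.3 CPM with LPS, and 363, 423, and 758 CPM with both. These groups overlapped throughout, set 3 was far above the other sets in each condition, and no comparison was called (LPS against PBS 0.59, SE 0.42, adjusted p = 0.278). Within sets its change with LPS was even, at 0.62, 0.62, and 0.54, and it passed the test with the set as a block (adjusted p = 8.28e-04). For Slc48a1 the levels were 299, 296, and 408 CPM with PBS, 411, 382, and 865 CPM with 3′SL, 364, 365, and 465 CPM with LPS, and 433, 445, and 677 CPM with both. This gene was higher with 3′SL in all 6 pairs of libraries of the same set. Its fitted change was 0.72 (SE 0.31) in quiescent cells and 0.38 (SE 0.31) with LPS (adjusted p = 0.478 and 1.0), and the first was called with the set as a block (adjusted p = 0.0230). This call was lost without set 1 (adjusted p = 0.173) or set 2 (0.127), and without set 3, which had the largest change within a set (1.08), the block fit gave 0.39, under the 1.5-fold minimum.

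The storage genes encode the subunits of ferritin, of which the heavy chain (Fth1) oxidizes iron and the light chain (Ftl1) helps to lay it down in the core. Fth1 had by far the most reads of the members, with 172813 to 349161 per library. It was at 6212, 6062, and 8848 CPM with PBS, 7422, 6969, and 13882 CPM with 3′SL, 12434, 12291, and 16757 CPM with LPS, and 10126, 11102, and 15198 CPM with LPS + 3′SL. All LPS libraries lay above all PBS libraries, and Fth1 rose 1.96-fold (log2 fold change 0.97, SE 0.30, adjusted p = 0.0215), and the changes within sets lay between 0.92 and 1.02. This call was lost with total counts (0.31, adjusted p = 0.207), without library set 1 (0.96, adjusted p = 0.130) or set 2 (0.96, adjusted p = 0.176), and on leaving out the PBS library of set 1 or 2 or the LPS library of set 3 (adjusted p at most 0.081). With 3′SL, Fth1 was higher in every set without LPS (0.26, 0.20, and 0.65) and lower in every set with LPS (-0.30, -0.15, and -0.14), and neither change passed the test (adjusted p = 0.690 and 1.0). The difference between these effects was -0.61 (SE 0.42), with an adjusted p of 0.870.

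Ftl1 was at 1564, 1590.2, and 2369.8 CPM with PBS, 2007, 2006, and 3339.7 CPM with 3′SL, 1547, 1553, and 1572 CPM with LPS, and 1561, 1641, and 1785 CPM with LPS + 3′SL. It was not called with LPS (-0.24, SE 0.22, adjusted p = 0.411) or with 3′SL (0.41 and 0.09), although it was higher with 3′SL in all 6 pairs of a set. These counts are uncertain, because 90.6% of the 50-base words of the Ftl1 mRNA also occur in other genes, mainly in the pseudogene Ftl1-ps1, on which 4320 to 15889 reads per library were counted, and reads that fit several places were not counted. For Fth1 this share was 4.01%. Relative to mRNA length, the ratio of Fth1 to Ftl1 counts was 2.49 ± 0.0787 with PBS, 2.45 ± 0.225 with 3′SL, 5.75 ± 1.005 with LPS, and 4.70 ± 0.712 with both (SD, n = 3), and the ranges with and without LPS did not overlap. The ratio carries the same uncertainty in Ftl1. Its size also depends on the mRNA chosen for Fth1, here the longest at 1494 bases, where another coding mRNA has 929. That choice scales all conditions alike.

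The first of the export genes is Slc40a1. Ferroportin, its product, releases ferrous iron into the plasma. The level was 465, 559, and 679 CPM with PBS, 869, 1143, and 1657 CPM with 3′SL, 63.3, 71.1, and 76.1 CPM with LPS, and 131, 165, and 222 CPM with LPS + 3′SL. No condition overlapped another, so that the order was 3′SL, PBS, LPS + 3′SL, and LPS from high to low. The steps of this order made by 3′SL were known when the gene was chosen. With LPS, Slc40a1 fell by 3.02 on the log2 scale (SE 0.27, adjusted p = 9.25e-06), an 8.09-fold change from 568 ± 107 to 70.2 ± 6.41 CPM (SD, n = 3), and the changes within sets were -2.88, -2.98, and -3.16. This call held under all alternatives tried.

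With 3′SL in quiescent cells, Slc40a1 was 2.15-fold higher (log2 fold change 1.11, SE 0.25), at 1223 ± 400.5 CPM, and with 3′SL in LPS-treated cells 2.46-fold higher (1.30, SE 0.26), at 173 ± 45.9 CPM. The changes within sets were 0.90, 1.03, and 1.29 in the first setting and 1.05, 1.22, and 1.54 in the second, higher in 6 of 6 pairs. As the gene was chosen with these changes known, its calls in the DESeq2 and block fits are no support for them, and edgeR's test over all genes called neither (adjusted p = 0.258 and 0.152). The difference between the 2 effects was 0.19 (95% interval -0.60 to 0.98, adjusted p = 0.971). LPS + 3′SL remained 7.09-fold below 3′SL alone (log2 fold change -2.83, SE 0.27, adjusted p = 2.26e-05), so the level with both agents lay between those of LPS and PBS.

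Cp encodes ceruloplasmin, the copper ferroxidase that oxidizes iron as it leaves through ferroportin and a known acute phase protein. It was at 6.14, 5.86, and 10.3 CPM with PBS, 7.59, 5.09, and 12.2 CPM with 3′SL, 362, 469, and 846 CPM with LPS, and 154, 210.4, and 353 CPM with LPS + 3′SL. LPS raised Cp 75.3-fold (log2 fold change 6.24, SE 0.52, adjusted p = 5.38e-06), the largest change of the members, while Slc40a1 fell in the same libraries. In LPS-treated cells, every library with 3′SL lay below every library without it, and the change was -1.23 (SE 0.42), with changes within sets of -1.24, -1.16, and -1.26. It did not pass edgeR's test (adjusted p = 0.483) or DESeq2's (adjusted p = 0.178), but passed with the set as a block (adjusted p = 0.00192), a call lost without set 1 (0.0722) or set 2 (0.0794). In quiescent cells, the change with 3′SL was 0.16 (SE 0.43) and differed in sign between sets. The interaction of both agents on Cp was -1.38 (SE 0.60, adjusted p = 0.811), and -1.36 with the set as a block (adjusted p = 0.0161, and 0.322 and 0.146 without set 1 or set 2). No gene was called in this interaction with edgeR (0.0% of all genes, with 872 at an unadjusted p under 0.05), 0.308% with DESeq2, and 1.55% with the block, where Cp was the single member.

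**Figure D2:**
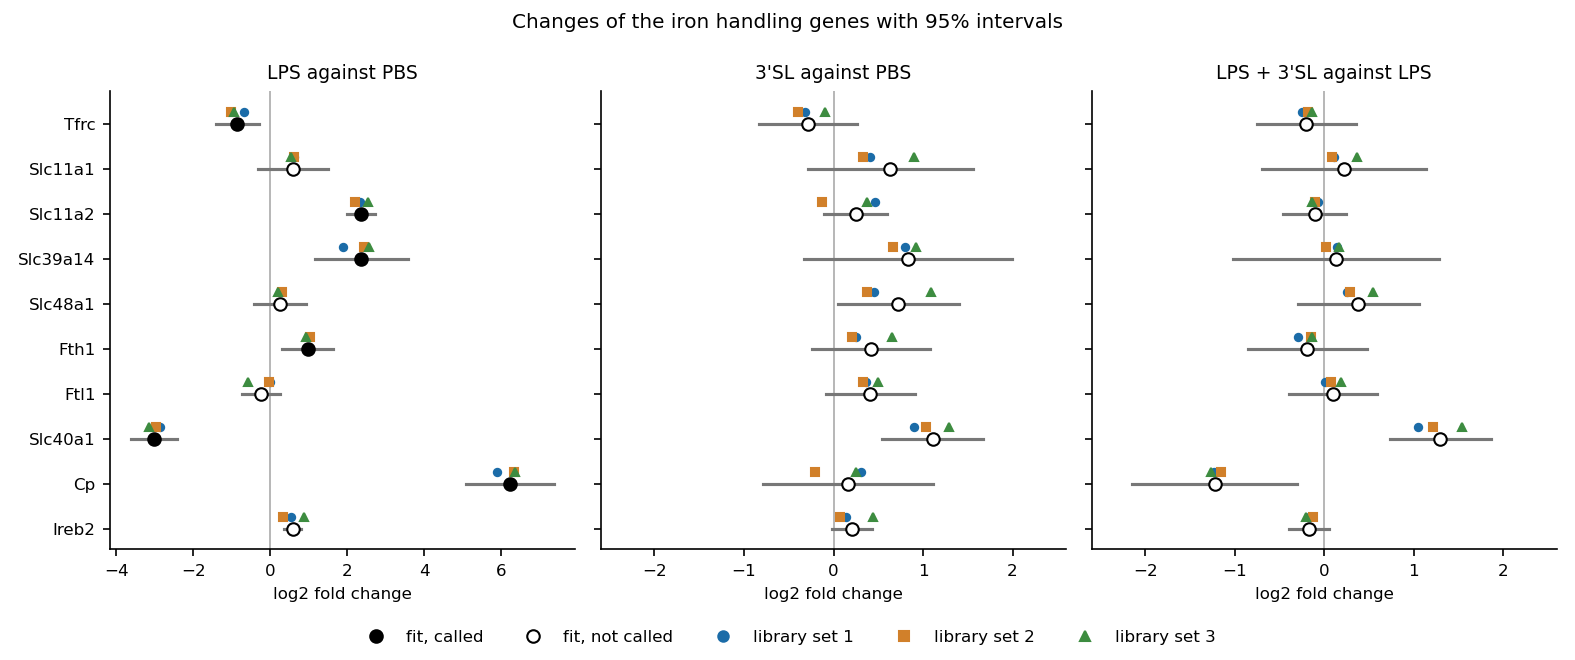
Log2 fold change of each member (horizontal axis, wider in the first panel) for LPS against PBS, 3′SL against PBS, and LPS + 3′SL against LPS. Large circles are the edgeR fit with its 95% interval, filled where called, and small colored points are the changes within library sets 1 to 3. The 6 filled circles are all in the first panel. In the panels of 3′SL, intervals not adjusted for the number of genes exclude 0 for Slc40a1 in both, Slc48a1 without LPS, and Cp with LPS. Slc40a1 was chosen with its changes with 3′SL known.

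Ireb2 encodes iron regulatory protein 2, which binds the IREs shown above. Its level was 86.3, 95.4, and 73.4 CPM with PBS, 94.96, 99.97, and 99.4 CPM with 3′SL, 126, 121, and 135 CPM with LPS, and 112, 111, and 118 CPM with LPS + 3′SL. The LPS libraries did not overlap with those of PBS. Its change with LPS was 0.58 (SE 0.10, adjusted p = 7.59e-04), which at 1.499-fold stayed just under the 1.5-fold minimum. Scaled with DESeq2's size factors, the value was 0.64 and the gene was called. With 3′SL, Ireb2 was higher in each set without LPS (0.14, 0.07, and 0.44) and lower in each set with LPS (-0.17, -0.12, and -0.20), and neither change nor their difference of -0.37 passed the test (adjusted p = 0.541, 0.876, and 0.746).

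When 3′SL was present throughout, LPS + 3′SL against 3′SL called 5 of the 10 members, where 29.2% of all genes were called, with Cp (4.85), Slc11a2 (2.00), and Slc39a14 (1.66) higher and Slc40a1 (-2.83) and Tfrc (-0.77) lower on the log2 scale. The groups did not overlap for 7 members, where 46.6% of all genes did not. This comparison shares its libraries with those above. The call of Slc39a14 was lost without library set 1 (adjusted p = 0.124) or set 2 (1.63, adjusted p = 0.134), and that of Tfrc without set 2 (-0.76, adjusted p = 0.259). Both were also lost on leaving out the 3′SL library of set 1 or 2 or the LPS + 3′SL library of set 3, and Tfrc without that of set 2 (adjusted p at most 0.159 for Slc39a14 and 0.122 for Tfrc). Fth1 was not called here (0.37, SE 0.30, adjusted p = 0.384), with 3′SL libraries from 6969 to 13882 CPM and LPS + 3′SL libraries from 10126 to 15198 CPM.

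Levels can be compared between genes only per length, here as CPM per kilobase of the longest coding mRNA. On that scale Fth1 (4713 ± 1049) and Ftl1 (1902 ± 473) stood first and second with PBS, as in every condition. The order of Fth1 and Ftl1 carries the uncertainty in the Ftl1 counts given above, so nothing is read from it. Next with PBS came Slc40a1 (168 ± 31.8), Slc48a1 (132 ± 25.2), and Slc11a1 (127 ± 42.4), whose ranges overlapped. Below these were Tfrc (60.8 ± 12.7), Ireb2 (14.7 ± 1.91), Slc11a2 (12.4 ± 1.13), Slc39a14 (7.88 ± 3.18), and Cp (1.63 ± 0.539). With LPS the exporter moved from place 3 to place 10, at 20.8 ± 1.90, a range that overlapped that of Ireb2 (22.1 ± 1.29). Its ferroxidase Cp moved the other way, from place 10 to place 5, at 122 ± 55.7 CPM per kilobase, a range that overlapped those of Slc48a1 and Slc11a1. With LPS + 3′SL, Slc40a1 stood at place 7 (51.2 ± 13.6), a range that overlapped those of Cp, Slc11a2, and Slc39a14. Per length and within each library, the ratio of Slc40a1 to Tfrc was 2.94 ± 1.24 with PBS, 7.55 ± 3.43 with 3′SL, 0.671 ± 0.256 with LPS, and 1.92 ± 0.993 with both (SD, n = 3). Slc40a1 was chosen with its rise with 3′SL known. Its place with LPS + 3′SL and the higher ratios with 3′SL follow from that rise and are no further finding.

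The 5 genes whose pattern over the 12 libraries was nearest to that of Slc40a1, by the root mean square difference of log2 levels after each gene's own mean was removed, were Cnnm2 (0.36), Zfyve28 (0.44), Pde3b (0.44), C130050O18Rik (0.44), and Adgrg1 (0.45), where the median over genes was 1.61. Zfyve28, for example, averaged 10.2 CPM with PBS, 16.5 CPM with 3′SL, 0.794 CPM with LPS, and 1.59 CPM with both. As these genes were picked for their likeness, no test was made.

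**Figure D3:**
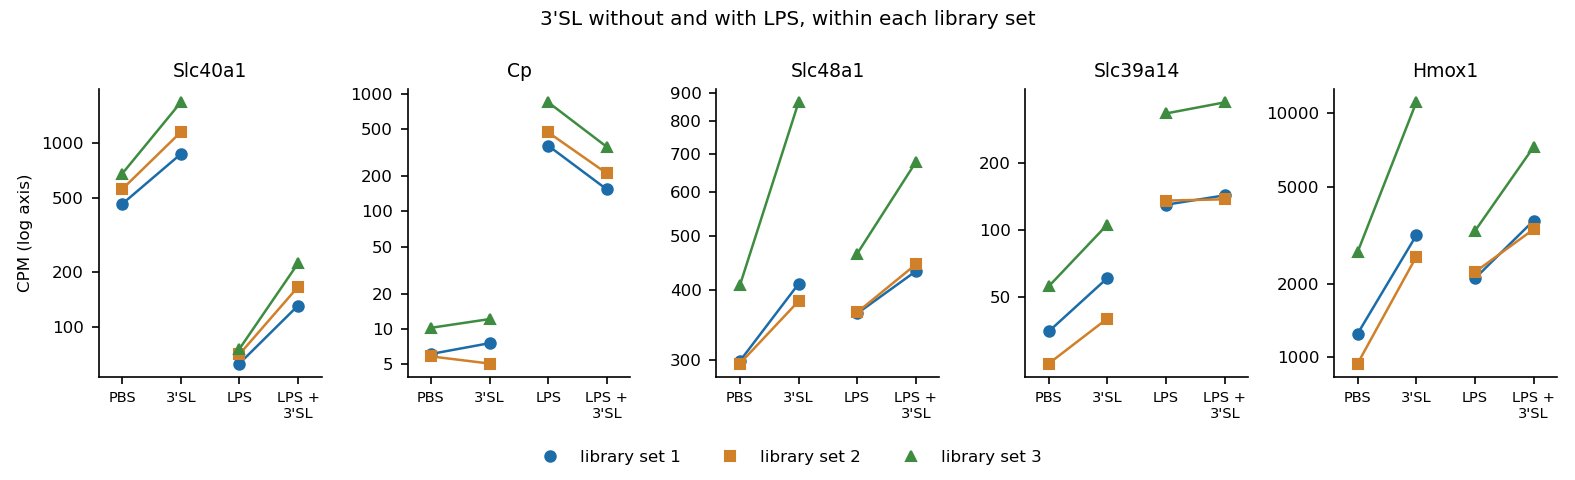
Level in CPM (log axis) of Slc40a1, Cp, Slc48a1, Slc39a14, and Hmox1 in each library, with lines joining the libraries without and with 3′SL in the same library set, PBS to 3′SL on the left and LPS to LPS + 3′SL on the right. The 6 lines of Slc40a1, Slc48a1, and Hmox1 all slope upward, and the 3 lines of Cp with LPS all slope downward.

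A further list of 63 genes of iron and heme metabolism was examined, of which 54 were tested. LPS called 11 of them higher and 15 lower (median of the log2 fold changes -0.24), where 38.5% of all genes were called. No gene of this list was called with 3′SL in either setting by edgeR or DESeq2 (8 and 6 genes at an unadjusted p under 0.05 with edgeR, where 0.0% of all genes were called and 1439 and 995 of 14308 had such a p). With LPS, the genes called higher with the largest values were Steap4, Hp, Flvcr2, and Alas1. Steap4, a metalloreductase, had 0 to 2 reads in each PBS library and 30 to 81 in each LPS library (adjusted p = 0.00149). Hp encodes haptoglobin, which binds free hemoglobin, and rose 10.0-fold (SE 0.42 on the log2 scale, adjusted p = 9.14e-05). Alas1, which makes the first committed precursor of heme, rose 5.24-fold, from 141, 132, and 263 CPM to 728, 847, and 1233 CPM (adjusted p = 0.00420). Flvcr2 had 22 reads or fewer in every LPS library, so its value (3.04, SE 0.66) rests on few reads.

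Those called lower with the largest values were Epas1 (-2.10), Steap3 (-2.02), Alad (-1.85), and Flvcr1 (-1.72). Steap3 is the ferrireductase of endosomes, and fell from 56.2, 60.7, and 45.0 CPM to 12.8, 15.4, and 11.8 CPM (adjusted p = 2.18e-05). Flvcr1, a heme exporter, fell from 84.7 ± 15.4 to 25.7 ± 2.18 CPM (SD, n = 3, adjusted p = 9.59e-06). Epas1 encodes the oxygen-regulated factor HIF-2α and Alad an enzyme of heme synthesis. By part of the list, LPS called 4 genes lower and 3 higher of 13 tested for import, 2 higher of 5 for storage and ferritin turnover, 1 higher and 2 lower of 6 for export, 2 higher and 5 lower of 14 for heme turnover, 2 higher and 1 lower of 8 for regulation, and 1 higher and 3 lower of 8 for iron-sulfur cluster assembly. With 38.5% of all genes called in this comparison, nothing is read from these small counts. The part listed as export also holds Slc46a1, a heme and folate transporter gene.

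**Figure D4:**
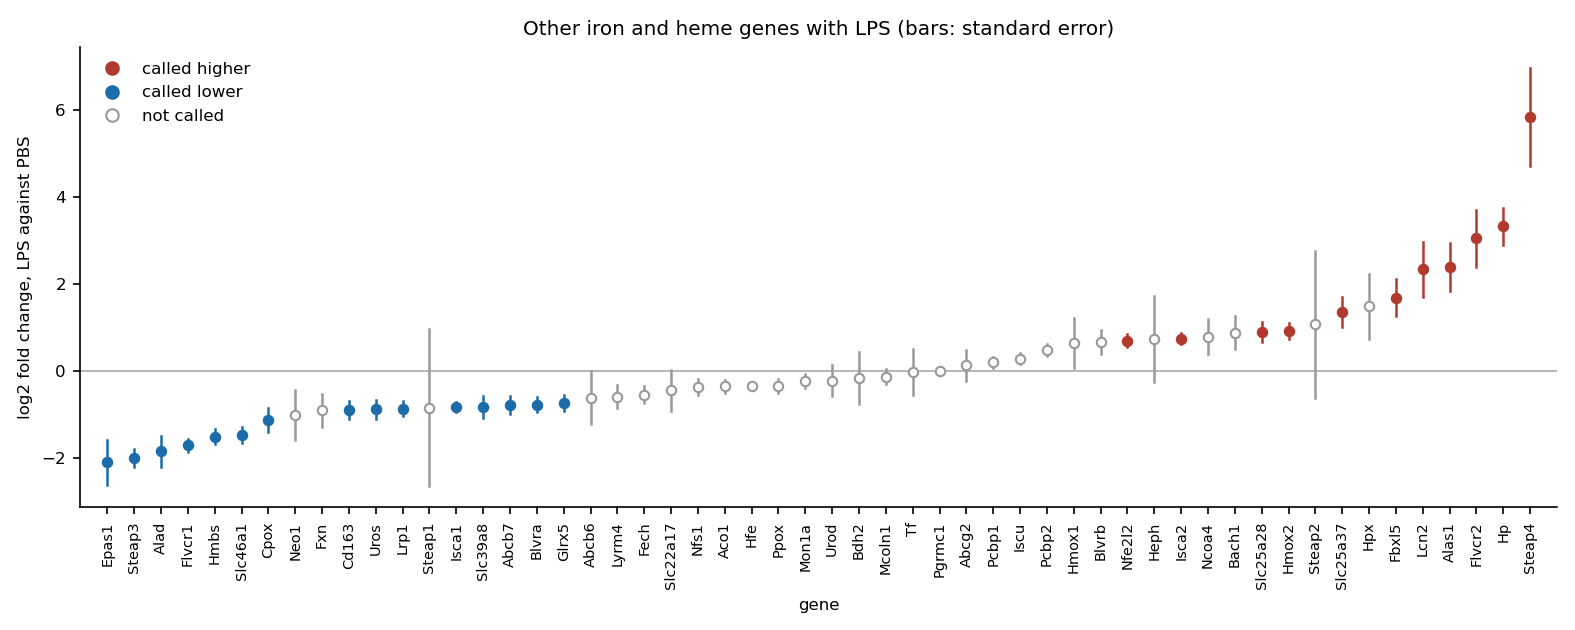
Log2 fold change with LPS against PBS of the 54 other iron and heme genes tested, ordered by value, with the standard error of the fit as bars. Filled points are the 11 genes called higher and the 15 called lower, and open points were not called.

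Several regulators and heme genes were looked at whatever their values. Hmox1 encodes heme oxygenase, which frees iron from heme, and was at 1249, 943, and 2697 CPM with PBS, 3155, 2579.8, and 11059 CPM with 3′SL, 2103, 2233, and 3288 CPM with LPS, and 3625, 3341, and 7256 CPM with both. It was higher with 3′SL in 6 of 6 pairs of a set, by 1.34, 1.45, and 2.04 without LPS and by 0.79, 0.58, and 1.14 with LPS. Its fitted changes of 1.78 (SE 0.59) and 0.90 (SE 0.58) were not called (adjusted p = 0.388 and 0.914). The first ranged from 0.77, without the 3′SL library of set 3, to 2.35, without the PBS library of set 3, and the second was 0.46 without the LPS + 3′SL library of set 3. With the set as a block the first was called (adjusted p = 0.00436), a call of Hmox1 lost without set 1 (0.127) or set 2 (0.0795). Fbxl5, which targets iron regulatory protein 2 for degradation when iron is present, rose with LPS (log2 fold change 1.68, SE 0.43, adjusted p = 0.00796), with 38.1, 41.2, and 42.1 CPM against 77.7, 96.1, and 215 CPM.

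Lcn2, which encodes the siderophore binder lipocalin 2, rose with LPS as well (2.33, SE 0.63, adjusted p = 0.0111). The summed neutrophil markers lay at 77.0 to 313 CPM with PBS and 120 to 553 CPM with LPS, and their part in the changes of Lcn2 and Hp, which neutrophils also express, was not tested. Aco1, the gene of iron regulatory protein 1 (-0.36, adjusted p = 0.0703), and Ncoa4, the receptor for the breakdown of ferritin (0.78, adjusted p = 0.131), were not called with LPS. Hamp, the gene of hepcidin, had 0 to 6 reads per library and was not tested, so a change was not detectable at this depth.

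RefSeq promoters (GRCm38, the bases around each start) were found for 6 of the members, Tfrc, Slc11a1, Fth1, Ftl1, Cp, and Ireb2. Slc40a1, Slc11a2, Slc39a14, and Slc48a1 had no entry and were not searched. The promoters found were searched on both strands for TGANNNNGC, the core of the antioxidant response element, and GGGA followed by 4 free bases and CC, a κB core. The first was present in the promoter of Slc11a1 alone among these members, where 41.3% of 32851 promoters held it. The second was present in 1 of 2 promoters of Fth1, 1 of 2 of Cp, and that of Ireb2, where 20.7% of all promoters held it. A match is a description of letters only.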

How the data were processed

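The 12 BMDM RNA-Seq libraries were grouped into 4 conditions by their labels. Their files, as deposited, hold whole read counts for every gene, which the authors had not normalized. The submitters' processing notes name FastQC, Trimmomatic, STAR, HTSeq, and DESeq2, without versions, and the genome build and the use of strand in counting were not given in the sources used here. Exons of Cp, Slc48a1, and Slc11a2 overlap genes on the other strand (Hps3, Hdac7, and Gm5475), and those of Ftl1 overlap Gm10252 and Gm22133, so reads from these partners cannot be told apart. The libraries were stranded and made from polyadenylated RNA. Between 33.2% and 37.1% of alignments or reads per library were not counted on a gene, mostly alignments that were not unique, and stayed out of library sizes. Identifiers were matched to GENCODE M21 (GRCm38), which named 42462 of 43626 genes. The IREs were read from its transcripts.

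Tests were run with edgeR 4.0.16 under R 4.3.3 (filterByExpr, TMM factors from 0.700 to 1.30, quasi-likelihood test, 1 mean per condition over all libraries). Benjamini-Hochberg adjustment was over 14308 genes, and standard errors come from the same fit. Only the edgeR fit without the block was tested on simulated data, which held large changes in 3′SL against PBS and no library sets. The block fit, DESeq2, and changes near the fold minimum were not tested in this way. No 2 libraries of a condition were alike within sampling noise (chi-square per gene 15.6 or more). Library sets were found by clustering of residual correlations and follow the running numbers of the libraries in the labels. Changes within sets are log2 ratios of 2 libraries and carry no error. The biological coefficient of variation was 0.310 without and 0.133 with the sets in the fit. Intervals and depths cover these libraries only.

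Alternatives were DESeq2 size factors, total counts, DESeq2 1.42.0 (Wald test), other filters on low counts (at least 1 count in total, or at least 10 in every library), a fit of only the conditions compared, no fold minimum, the library set as a block, and leaving out each library or set. The block with a set left out was added after the data had been seen. All 10 members were named. Of the further list, every gene called with 3′SL, the 4 genes with the largest change in each direction with LPS, and Hmox1, Ncoa4, Fbxl5, Aco1, Lcn2, and Hamp were named, with the 5 genes nearest to Slc40a1. The members and lists were chosen with earlier results of these data known. Other data of the study were not analysed here.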

Additional observations from a re-analysis of the deposited data

Results flagged for a closer look

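The effect of 3′SL on Cp differed between quiescent and LPS-treated cells in 2 of the fits. With the library set as a block in edgeR, the interaction of LPS and 3′SL was -1.36 on the log2 scale (adjusted p = 0.0161), and -1.25 without library set 3 (adjusted p = 0.00879), but the call was lost without set 1 (adjusted p = 0.322) or set 2 (0.146). The changes with 3′SL within the 3 sets were 0.31, -0.20, and 0.25 without LPS and -1.24, -1.16, and -1.26 with LPS. Without the block, the interaction was -1.38 (SE 0.60, adjusted p = 0.811). Cp had 128 to 306 reads per library without LPS and 3168 to 13777 with LPS.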

How the results depend on the processing

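The members called in LPS against PBS numbered 4 to 7 when 1 library was left out, in LPS + 3′SL against 3′SL 3 to 6, and in the 3′SL comparisons and the interaction 0 throughout. Of the 14633 to 14729 genes tested in these fits, 4665 to 5748 were called in LPS against PBS and 3433 to 4387 in LPS + 3′SL against 3′SL. In LPS + 3′SL against LPS 0 to 8 were called, and in 3′SL against PBS and the interaction 0. For Slc40a1, leaving out 1 library gave 0.79 to 1.30 in 3′SL against PBS and 1.08 to 1.46 in LPS + 3′SL against LPS. DESeq2 called 1 member in each of these comparisons, with Slc40a1 at 1.12 and 1.29. The block fit called 3, 2, and, in the interaction, 1, with Slc40a1 at 1.08 and 1.26, and without set 3 it called 2, 2, and 1, with Slc40a1 at 0.95 and 1.14. Without set 3 and without the block, LPS + 3′SL against LPS called 2 members, with Slc40a1 at 1.15, and without set 2, LPS + 3′SL against 3′SL called 3. Total counts turned the sign of Slc11a1 (-0.0862), Slc48a1 (-0.41), Ireb2 (-0.0745), and Hmox1 (-0.0225) in LPS against PBS, and Slc11a1 (-0.31), Fth1 (-0.11), and Ireb2 (-0.27) in LPS + 3′SL against 3′SL, where the median of all genes moved to -0.54. The causes of these differences were not tested.

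Other values that changed sign were not called. Leaving out 1 library gave a range through 0 for Fth1 (-0.0054 to 0.62) and Cp (-0.26 to 0.46) in 3′SL against PBS, and for Tfrc (-0.41 to 0.0486), Slc11a2 (-0.22 to 0.0259), Slc11a1 (-0.17 to 0.49), and Slc39a14 (-0.51 to 0.72) in LPS + 3′SL against LPS. In LPS + 3′SL against 3′SL this held for Slc11a1 (-0.21 to 0.76), Slc48a1 (-0.33 to 0.40), and Hmox1 (-0.68 to 0.74), and without set 3 the values were 0.18 for Slc48a1 and 0.32 for Hmox1 in both fits. In the interaction it held for Tfrc (-0.12 to 0.33), Slc40a1 (-0.0284 to 0.51), Slc11a1 (-0.80 to 0.20), Slc48a1 (-0.58 to 0.17), Ftl1 (-0.54 to 0.0086), and Hmox1 (-1.45 to 0.12).

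Over all genes, edgeR called 5502 in LPS against PBS, and 8192 with total counts, 1535 higher and 6657 lower in place of 2613 and 2889. It called 3516 without set 2 there and 2183 in place of 4171 in LPS + 3′SL against 3′SL. In 3′SL against PBS it called 0, against 88 with DESeq2, 406 with the block, and 87 without set 3, and in LPS + 3′SL against LPS 0, against 113, 207, and 149. In the interaction the counts were 0, 44, 222, and 44. With the block and without set 3 they were 323, 371, and 457, and without set 1 or 2 at most 3. The labels give no replicate numbers, so the block rests on sets found in the data.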

Other observations

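Several further iron and heme genes were called with 3′SL only in the fit with the library set as a block, and were chosen for naming with their values in view. These calls were not recomputed without single library sets. In quiescent cells, these were Blvrb, which encodes a biliverdin reductase that acts after heme oxygenase, and Bach1, a heme-sensing repressor of Hmox1, both higher beside Hmox1, and Steap3, the heme and folate transporter gene Slc46a1, and Epas1, all lower. Bach1 was at 92.5, 105, and 109 CPM with PBS and 129, 145, and 254 CPM with 3′SL, without overlap (log2 fold change 0.78, SE 0.38, edgeR adjusted p = 0.539, and 0.0376 with the block). Blvrb was at 109.5, 105, and 148 CPM with PBS and 135, 143, and 288 CPM with 3′SL, with overlap (0.64, SE 0.28, edgeR adjusted p = 0.484, and 0.0463 with the block). Steap3 was at 36.5, 37.2, and 24.8 CPM with 3′SL, below all PBS libraries (-0.72, SE 0.20, edgeR adjusted p = 0.330, and 0.00897 with the block).

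In LPS-treated cells, Cpox, an enzyme of heme synthesis, was higher with 3′SL, at 10.3, 8.92, and 7.13 CPM against 5.81, 5.18, and 4.48 CPM (0.77, SE 0.28, edgeR adjusted p = 0.538, and 0.0334 with the block). Hp, the gene of another plasma protein of the acute phase like Cp, was lower in each set, at 10.2, 13.7, and 26.6 CPM against 23.9, 35.2, and 55.9 CPM (-1.19, SE 0.39, edgeR adjusted p = 0.444, and 0.0227 with the block), and its groups overlapped. Slc25a37, the mitochondrial iron importer mitoferrin 1, was the gene of the list with an interaction called by the block fit (-1.01, adjusted p = 0.0117). It was higher with 3′SL in each set without LPS, at 90.8, 92.8, and 176 CPM against 63.6, 65.2, and 116 CPM, and lower in each set with LPS, at 128, 120, and 224 CPM against 192, 184, and 251 CPM. All 8 genes of iron-sulfur cluster assembly had values below 0 in 3′SL against PBS (median -0.20, and 0.00 for all genes tested). Of these, 6 kept 1 direction in all 3 sets. None was called by edgeR, DESeq2, or the block fit, with 1 at an unadjusted p under 0.05 in edgeR. In LPS + 3′SL against LPS, 5 were higher and 3 lower (median 0.07, and -0.01 for all genes tested).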
